A study of Mus musculus with 4 samples.

Results

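The genes of DNA replication were followed in bone marrow-derived macrophages (BMMs) that had been cultured with or without RANKL, IL-3 and STAT5. The set held 43 of the 23920 genes in the deposited table. It was a list of gene symbols that covers origin licensing (10 genes), helicase activation (6), the replicative polymerases (8), the sliding clamp and its loader (6), the processing of nascent strands (4), the supply of nucleotides (5) and the control of S phase (4). All 43 genes were found, and all 43 reached 1 FPKM (fragments per transcript length and library depth) in at least 1 library.

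RNA sequencing gave 4 libraries, 1 per condition. *Stat5* cKO BMMs, in which floxed *Stat5* was deleted with Mx1-Cre, were cultured with 3 cytokines, which were M-CSF at 30 ng/mL, RANKL at 100 ng/mL and IL-3 at 1 ng/mL. *Stat5* fl/fl BMMs without Cre received M-CSF, RANKL and IL-3, or M-CSF and RANKL, or M-CSF alone, at the same doses. All were collected at 24 h and are labelled as C57BL/6, male and 8 weeks old, although the study's methods give a younger age for mice used in osteoclast cultures. Mx1-Cre is driven by an interferon-inducible promoter and is not limited to macrophages. According to the study's methods, poly I:C was injected into cKO mice to induce Cre. The fl/fl littermates used as controls were injected in the same way. The comparison of genotypes rests on 1 cKO and 1 fl/fl culture, so genotype, animal and culture cannot be told apart, and whether animals were pooled is not given in the sources used here. None of the 4 libraries is from cKO cells without IL-3. A genotype difference that needs IL-3 therefore cannot be told apart from one that is present without it.

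M-CSF is the growth and survival factor of BMMs, RANKL turns them toward osteoclasts, and IL-3 is a cytokine whose receptor signals through STAT5. Before S phase, ORC, CDC6 and CDT1 load the MCM2-7 ring onto replication origins, a step called licensing. CDC45 and the GINS complex then turn the ring into the active helicase, after which the polymerases copy both strands with the sliding clamp PCNA. E2F transcription factors, released from RB proteins when cyclin-dependent kinases are active, drive many of these genes at the entry into S phase. Cells of this lineage divide as precursors and leave the cell cycle as they become mature osteoclasts.

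*Stat5a* was at 0.168 FPKM in the cKO library, against 12.0 FPKM with RANKL and IL-3, 10.8 FPKM with RANKL and 9.89 FPKM with M-CSF in the fl/fl libraries. *Stat5b* was at 0.189 FPKM in the cKO library, against 8.86, 7.80 and 10.8 FPKM in the same 3 fl/fl libraries. Both genes were thus near 0 in the library labelled cKO. The data went against the label of sex: 4 of 4 Y-linked genes examined were at 0 in every library, and *Xist*, which is made from the inactive X of female cells, was at 31.9 to 47.0 FPKM. This held in all 4 libraries alike. The sum of 8 macrophage markers was 12563 FPKM in the cKO library, against 17846 FPKM in fl/fl with RANKL and IL-3, 8380 FPKM with RANKL and 22576 FPKM with M-CSF. *Lyz2* alone gave 11241, 15871, 7176 and 19887 FPKM of these sums in the same order, so they mostly follow that gene. The sum of 8 osteoclast markers was 433 FPKM in the cKO library, against 123, 1119 and 32.3 FPKM in the same 3 fl/fl libraries, with *Calcr* at 0 in all 4. Of 7 lymphoid markers 0 reached 1 FPKM, and of 4 erythroid markers 0 did. Neutrophil markers summed to 742 FPKM in the cKO library, against 1020, 709 and 1258 FPKM in those 3 fl/fl libraries. Progenitor markers summed to 59.7 FPKM in the cKO library, against 107, 60.4 and 89.1 FPKM. *Elane*, *Mpo* and *Prtn3* made up most of these sums, and *Kit*, *Flt3* and *Gata1* were below 1 FPKM in all 4 libraries. *Gata2* ran the other way, at 2.75 FPKM in the cKO library, against 0.588, 2.15 and 0.263 FPKM. The part of these cell types in the results that follow was not tested. In bulk samples fewer cells of a type and less RNA per cell cannot be told apart, which here holds for cells in S phase.

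Short stretches before the start sites are shown for 5 of the genes, because E2F motifs in such windows are a known feature of replication genes. Whether the motifs bear on the ratios below was not tested. RefSeq windows of 250 bases before the start were available for 35 of the 43 genes, with 41 windows in all. E2F motifs were searched as TTTCCCGC, TTTGGCGC, TTTCGCGC and TTTGCCGC on both strands, and the NF-Y type box as CCAAT on both strands. At least 1 E2F motif stood in 9 windows of 9 genes (21.95% of the windows), against 1.86% of 32851 windows of all genes. These genes were *Mcm5*, *Mcm6*, *Mcm7*, *Orc1*, *Cdc6*, *Rfc3*, *Gins3*, *Uhrf1* and *Pola1*. CCAAT stood in 23 windows of 21 genes (56.1%), against 33.8% of all windows. A match describes the letters of a window and not a site in use. The sequences below are from RefSeq on GRCm38, run 5′ to 3′ on the gene's strand over the last 200 bases before the start, and carry E2F and CCAAT motifs in capitals. *Mcm6* and *Mcm5* are genes of the helicase ring, *Uhrf1* was past 1.5-fold in all 3 comparisons, *Pola1* had an E2F motif and a RANKL ratio near 0, and *Mcm2* had no E2F motif. The *Uhrf1* window is that of the later of its starts.
Mcm6, chr1:128359706-128359905, minus strand: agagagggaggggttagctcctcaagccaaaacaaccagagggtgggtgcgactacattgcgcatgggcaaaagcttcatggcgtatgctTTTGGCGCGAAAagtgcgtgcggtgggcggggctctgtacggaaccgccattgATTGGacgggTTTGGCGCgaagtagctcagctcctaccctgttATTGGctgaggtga
Mcm5, chr8:75109309-75109508, plus strand: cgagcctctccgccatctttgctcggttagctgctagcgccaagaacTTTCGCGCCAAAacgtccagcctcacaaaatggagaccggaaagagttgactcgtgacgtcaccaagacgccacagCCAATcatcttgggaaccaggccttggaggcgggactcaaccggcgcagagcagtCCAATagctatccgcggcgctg
Uhrf1, chr17:56304113-56304312, plus strand: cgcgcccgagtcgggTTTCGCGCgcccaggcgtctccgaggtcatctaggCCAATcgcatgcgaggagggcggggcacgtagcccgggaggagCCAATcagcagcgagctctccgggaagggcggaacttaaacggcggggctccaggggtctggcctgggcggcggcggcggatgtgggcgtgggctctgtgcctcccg
Pola1, chrX:93632156-93632355, minus strand: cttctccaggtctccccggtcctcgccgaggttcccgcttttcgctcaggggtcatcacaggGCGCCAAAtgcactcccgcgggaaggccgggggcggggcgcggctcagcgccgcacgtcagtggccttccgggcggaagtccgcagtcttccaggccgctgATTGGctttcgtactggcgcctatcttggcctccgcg
Mcm2, chr6:88898781-88898980, minus strand: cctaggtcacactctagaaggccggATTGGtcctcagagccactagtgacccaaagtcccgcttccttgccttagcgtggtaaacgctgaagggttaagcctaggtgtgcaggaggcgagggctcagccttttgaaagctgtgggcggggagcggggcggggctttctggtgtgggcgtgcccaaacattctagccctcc
The window of *Mcm6* held 3 E2F matches, at -110, -106 and -47 from the start, of which the first pair overlap. *Mcm5* held 2 overlapping matches at -153 and -149. *Uhrf1* held 1 at -185 and *Pola1* held 1 at -138, while *Mcm2* held only a CCAAT box, at -175.

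The first question was how the set as a whole stood in each pair of libraries. Ratios are log2((a + 1)/(b + 1)) of FPKM, so that 1 is about 2-fold, and every share of all genes below is over the 10762 genes that reached 1 FPKM somewhere. With 1 library per condition there is no test between conditions, and no p-value or SD. The libraries held an estimated 33.2 to 36.8 M fragments each, and counting error alone gave 95% half-widths of 0.03 to 0.20 on a gene's log2 ratio (median 0.08). The RANKL library enters 2 of the comparisons, and so does the fl/fl library with RANKL and IL-3, so the comparisons are not independent of each other. The median of all genes was itself off 0. It was 0.14 when RANKL was set against M-CSF alone, -0.15 when IL-3 was added, and 0.13 when the cKO was set against fl/fl.

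With RANKL, the replication genes stood slightly above M-CSF alone. The median log2 ratio over the 43 genes was 0.30, which is 0.16 above that of all genes, and 37 of 43 were above 0, against 61.0% of all genes. The 6 genes below 0 were *Pcna*, *Lig1*, *Rpa1*, *Tk1*, *Rpa2* and *Gins2*. Of the genes above 0, *Gins1*, *Pola1*, *Tyms*, *Ccne1* and *E2f1* lay within their counting error of 0. Of the 43 genes 0 were at least 2-fold higher and 0 at least 2-fold lower, where 5.44% and 6.88% of all genes were. At 1.5-fold, 4 were higher (*Gins3*, *Uhrf1*, *Orc6* and *Pold2*) against 15.6% of all genes, and *Pcna* alone was lower against 13.9%. The set was thus below the background in large ratios and above it in the share of genes on the higher side.

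With IL-3 added to RANKL, the set stood on the lower side. Its median log2 ratio was -0.35, which is -0.20 relative to all genes, and 41 of 43 genes were below 0, against 64.0% of all genes. *Ccne1* and *Gins2* were the exceptions, at 0.08 and 0.01, both within their counting error of 0. On the lower side *Prim2*, *Tyms* and *Orc1* were within it as well. After scaling by the median ratio of all genes, 10 genes were above 0 in this comparison, and 32 in the RANKL comparison. At 2-fold, 0 genes were higher (6.11% of all genes) and 0 lower (3.47%). At 1.5-fold, 0 were higher (12.1% of all genes) and 5 were lower (*Mcm6*, *Gins3*, *Mcm7*, *Pole* and *Uhrf1*), a share close to the 12.7% of all genes.

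In *Stat5* cKO cells with RANKL and IL-3, all 43 genes stood above the fl/fl library with the same cytokines, against 64.4% of all genes. The median log2 ratio was 0.51, which is 0.38 above that of all genes, and the range was 0.12 for *Orc1* to 0.87 for *Gins3*. *Orc1* was the only one of the 43 that lay below the median of all genes. At 2-fold, 0 genes were higher (2.11% of all genes) and 0 lower (4.28%). The pseudocount matters here, since *Gins3* was 2.00-fold higher without it. At 1.5-fold, 11 were higher, against 8.43% of all genes, and 0 were lower, against 8.89%. These 11 were *Gins3*, *Mcm6*, *Mcm7*, *Uhrf1*, *Dut*, *Pole*, *Mcm10*, *Tk1*, *Gins1*, *Rfc5* and *Rrm2*. The counts at 1.5-fold depend on the scaling. When libraries were scaled by the median ratio of all genes, they became 0 higher for RANKL, 2 lower for IL-3 and 4 higher for the cKO, while all 43 genes stayed above 0 in the cKO comparison.

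**Figure D1:**
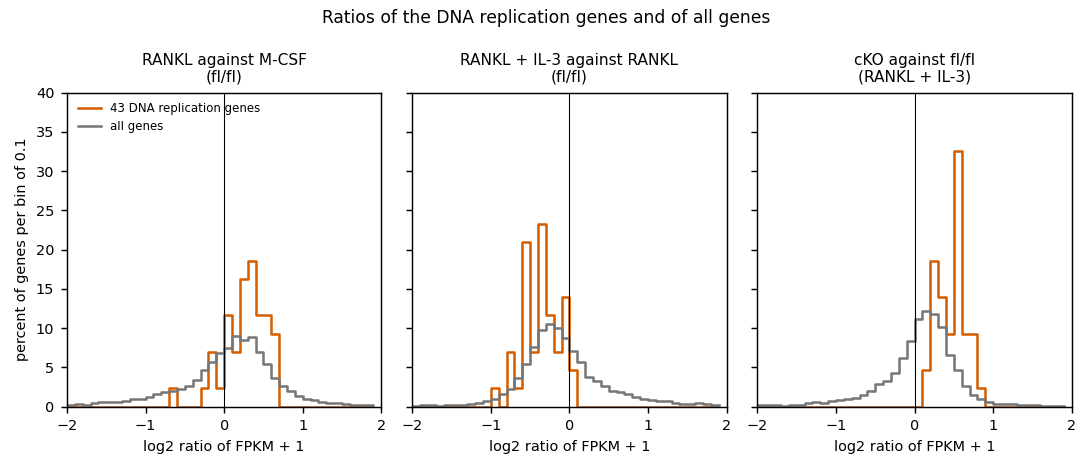
Distribution of the log2 ratio of FPKM + 1 (x axis, bins of 0.1) in percent of genes (y axis) for the 43 replication genes (orange) and all 10762 genes (grey), in each comparison; ratios beyond the axis are not drawn. The replication genes form a narrow group above 0 in the cKO comparison, with a median of 0.51 against 0.13 for all genes, and below 0 when IL-3 was added, with -0.35 against -0.15.

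The order of the 4 libraries was similar in most of the genes. The cKO library held the highest value in 36 of 43, against 19.2% of all genes. The fl/fl library with RANKL and IL-3 held the lowest in 27, against 29.8% of all genes, and the M-CSF library in 15, against 36.1%. The order cKO, RANKL, M-CSF, then RANKL with IL-3 was found in 19 genes (5.72% of all genes), and the same order with the lower pair exchanged in 13 (8.85%). In some genes this lower pair was level within counting error. The library with RANKL and IL-3 was at 0.998, 0.995 and 1.008 of the M-CSF library in *Rfc2*, *Rfc5* and *Tyms*. After scaling by the median ratio, it was lowest in 22 genes, against 21.3% of all genes. The exceptions at the top were *Mcm6*, *Cdt1*, *Pold1* and *Pole*, highest with RANKL, and *Pcna*, *Tk1* and *Lig1*, highest with M-CSF. In *Cdt1*, *Pold1* and *Pole* the cKO library was at 0.996, 0.992 and 0.985 of the RANKL library, within counting error, and after scaling by the median ratio only 1 gene was highest with RANKL. Some of the 36 genes were as close, so that this count includes near ties. In *Pold2*, *Rfc4* and *Orc1* the cKO library was at 1.004, 1.01 and 1.04 of the RANKL library, also within counting error. The gap between the cKO and the RANKL library was small, within 1.1-fold in 24 genes. The highest library exceeded the lowest by 1.18-fold (*Gins2*) to 2.00-fold (*Gins3*), with a median of 1.47-fold. Summed over all 43 genes, levels were 2299 FPKM in the cKO library. In fl/fl cells they were 1640 FPKM with RANKL and IL-3, 2116 FPKM with RANKL and 1976 FPKM with M-CSF. Without *Pcna*, the gene with the highest level, the sums were 1913, 1321, 1786 and 1460 FPKM in the same order. The M-CSF library thus lay closer to the RANKL library with *Pcna* than without it.

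**Figure D2:**
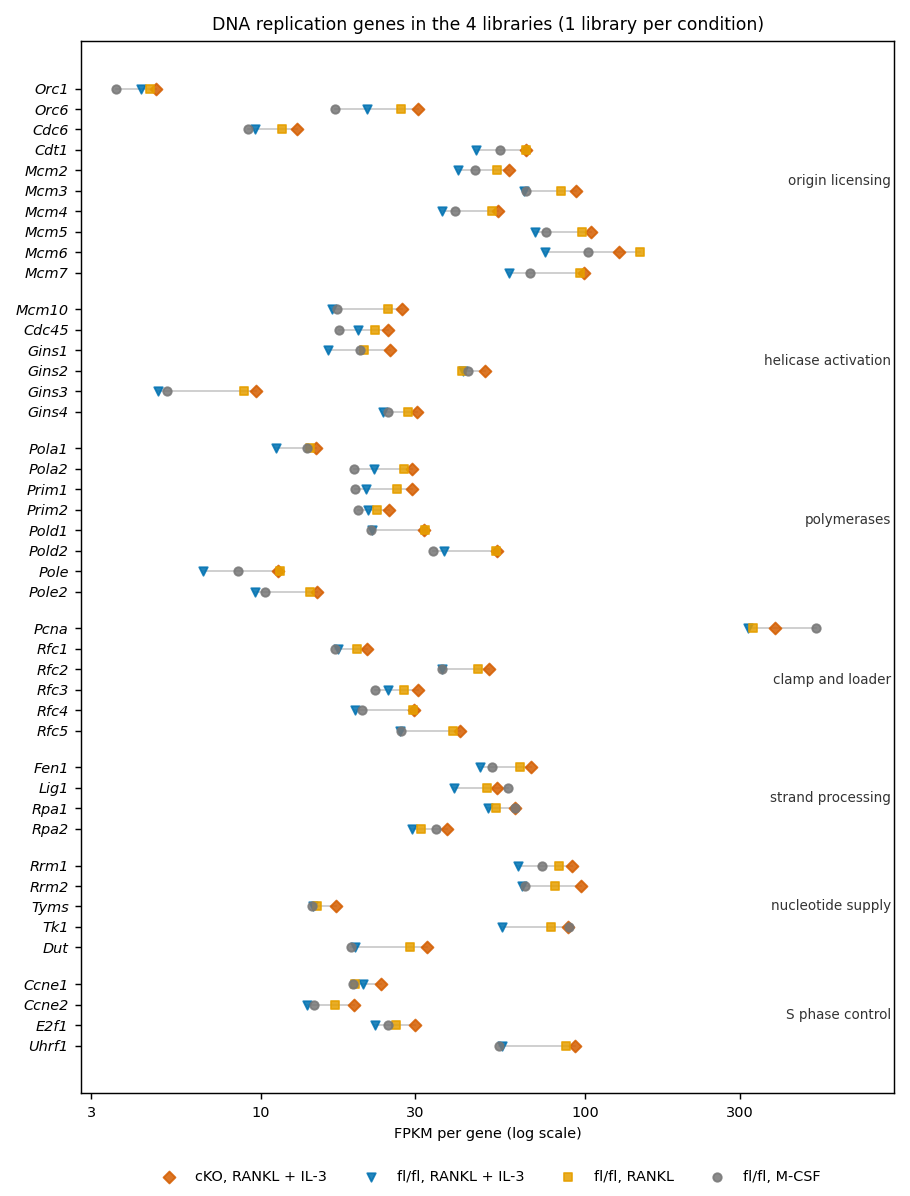
FPKM per gene (x axis, log scale) of the 43 replication genes (rows, by role) in the 4 libraries, 1 symbol per library: orange diamond cKO with RANKL and IL-3, blue triangle fl/fl with RANKL and IL-3, yellow square fl/fl with RANKL, grey circle fl/fl with M-CSF. The diamond lies farthest right in 36 rows, and *Pcna*, at 319 to 516 FPKM, lies apart from all others.

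The licensing genes include the helicase ring, whose subunits MCM2 to MCM7 form 1 ring with a copy of each. *Mcm6* (chromosome 1, 128331590 to 128359664, minus strand) was at 128 FPKM in the cKO library, against 75.2 FPKM in fl/fl with RANKL and IL-3, 148 FPKM with RANKL and 102 FPKM with M-CSF. Its log2 ratio of -0.96 with IL-3 was the lowest of the 43 genes in that comparison, and it was 0.75 in the cKO. *Mcm7* (chromosome 5, 138164583 to 138172422, minus strand) was at 99.1 FPKM in the cKO library, against 58.3, 96.7 and 67.5 FPKM in fl/fl with RANKL and IL-3, with RANKL and with M-CSF. Its ratios were 0.51, -0.72 and 0.75 for RANKL, IL-3 and the cKO, so that it matched *Mcm6* closely in the cKO and RANKL comparisons and was less low with IL-3. In both genes the cKO and RANKL libraries were the high pair.

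The other ring subunits ran the same way with smaller ratios. *Mcm5* (chromosome 8, 75109569 to 75128439, plus strand) was at 104 FPKM in the cKO library, against 70.1, 97.6 and 75.6 FPKM in the 3 fl/fl libraries in the same order. *Mcm3* was at 93.7 FPKM in the cKO library, against 64.8, 84.4 and 65.8 FPKM. *Mcm2* was at 58.1 FPKM in the cKO library, against 40.6, 53.5 and 45.8 FPKM. *Mcm4* was at 53.8 FPKM in the cKO library, against 36.2, 51.7 and 39.9 FPKM, the lowest of the 6 in every library. Summed over the 10 licensing genes, levels were 650 FPKM in the cKO library, against 426, 641 and 481 FPKM. For the 4 genes other than *Mcm6* and *Mcm7* the log2 ratios were 0.22 to 0.37 with RANKL, -0.50 to -0.38 with IL-3 and 0.51 to 0.56 in the cKO.

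The loading factors had their own levels. *Orc6*, a subunit of the origin recognition complex, was at 30.6 FPKM in the cKO library, against 21.2 FPKM with RANKL and IL-3, 27.0 FPKM with RANKL and 17.0 FPKM with M-CSF in fl/fl cells. *Orc1*, the largest subunit of that complex, was the lowest of the 43 genes, at 4.75 FPKM in the cKO library, against 4.28, 4.56 and 3.59 FPKM. *Orc1* lay within its counting error of 0 in the IL-3 and cKO comparisons. *Cdt1*, which brings the ring to origins and is held in check by geminin, was at 65.6 FPKM in the cKO library, against 46.0, 65.9 and 54.6 FPKM. *Cdc6*, the ATPase that works with it, was at 12.9 FPKM in the cKO library, against 9.59, 11.6 and 9.14 FPKM.

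Helicase activation held both the largest and the smallest spread of the set. *Gins3* (chromosome 8, 95633453 to 95645060, plus strand), a subunit of the 4-part GINS complex, was at 9.67 FPKM in the cKO library, against 4.83 FPKM with RANKL and IL-3, 8.88 FPKM with RANKL and 5.14 FPKM with M-CSF in fl/fl cells. The cKO and RANKL libraries stood 1.73-fold or more above the other pair in that gene, and its ratios were the highest of the set for RANKL (0.69) and for the cKO (0.87). *Gins2* was nearly level, at 49.3 FPKM in the cKO library, against 42.1, 41.9 and 43.7 FPKM. *Gins1* was at 25.001 FPKM in the cKO library, against 16.1, 20.8 and 20.2 FPKM, and *Gins4* at 30.3 FPKM, against 23.8, 28.5 and 24.8 FPKM. The subunits of 1 complex thus differed in RNA, with cKO log2 ratios of 0.87, 0.60, 0.33 and 0.22 for *Gins3*, *Gins1*, *Gins4* and *Gins2*. *Mcm10*, a factor that helps the helicase start, was at 27.2 FPKM in the cKO library, against 16.6, 24.6 and 17.2 FPKM. *Cdc45*, the third component of the helicase, was at 24.7 FPKM in the cKO library, against 19.98, 22.6 and 17.5 FPKM.

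The polymerase genes lay between these extremes. *Pole*, the catalytic subunit of the leading-strand polymerase, was at 11.3 FPKM in the cKO library, against 6.63 FPKM with RANKL and IL-3, 11.5 FPKM with RANKL and 8.52 FPKM with M-CSF in fl/fl cells. Its log2 ratio with IL-3 was -0.71 and in the cKO 0.69. *Pold1* and *Pold2*, subunits of the lagging-strand polymerase, had cKO ratios of 0.51 and 0.52 and IL-3 ratios of -0.52 each. *Pold2* was at 53.4 FPKM in the cKO library, against 36.9, 53.2 and 34.1 FPKM, and *Pold1*, the catalytic subunit, at 31.9 FPKM, against 22.1, 32.2 and 21.9 FPKM. *Pole2*, a partner subunit of *Pole*, was at 14.9 FPKM in the cKO library, against 9.59, 14.2 and 10.3 FPKM. In *Pold1*, *Pold2*, *Pole* and *Pole2* the cKO and RANKL libraries lay close together and above the other pair. In *Pole*, and by less in *Pole2*, the M-CSF library also stood above that with RANKL and IL-3. The primase-polymerase genes *Pola1*, *Pola2*, *Prim1* and *Prim2*, which lay down the first bases of each fragment, had cKO ratios of 0.20 (*Prim2*) to 0.45 (*Prim1*). *Pola1* was at 14.8 FPKM in the cKO library, against 11.2, 14.2 and 13.9 FPKM, with a RANKL ratio of 0.03. *Pola2*, its regulatory partner, was at 29.4 FPKM in the cKO library, against 22.4, 27.7 and 19.4 FPKM. The primase subunit *Prim1* was at 29.3 FPKM in the cKO library, against 21.1, 26.4 and 19.6 FPKM, and *Prim2* at 24.8 FPKM, against 21.5, 22.9 and 20.02 FPKM. *Pola1* was thus the only one of the 4 whose M-CSF value lay above that with RANKL and IL-3.

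*Pcna* went another way. The sliding clamp that holds the polymerases on DNA was at 387 FPKM in the cKO library, against 319 FPKM with RANKL and IL-3, 329 FPKM with RANKL and 516 FPKM with M-CSF in fl/fl cells. Its RANKL ratio of -0.65 was the lowest of the set, whereas its cKO ratio of 0.27 had the direction of the rest. Near-identical pseudogenes of *Pcna* are annotated (*Pcna-ps2* among them), so reads of these copies may be shared. The clamp loader genes *Rfc1* to *Rfc5* did not share the course of *Pcna*. *Rfc5* was at 41.3 FPKM in the cKO library, against 26.9, 39.2 and 27.1 FPKM, and *Rfc4* at 29.7 FPKM, against 19.5, 29.4 and 20.5 FPKM. *Rfc1*, the large loader subunit, was at 21.3 FPKM in the cKO library, against 17.3, 19.9 and 17.0 FPKM. *Rfc2* was at 50.6 FPKM, against 36.2, 46.7 and 36.2 FPKM, and *Rfc3* at 30.6 FPKM, against 24.7, 27.7 and 22.5 FPKM. All 5 had their highest value in the cKO library. The RANKL log2 ratios of the 5 loader genes were 0.21 to 0.52 and their cKO ratios 0.29 to 0.60.

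The genes that process nascent strands were split. *Lig1*, which seals lagging-strand fragments, was at 53.5 FPKM in the cKO library, against 39.4 FPKM with RANKL and IL-3, 49.96 FPKM with RANKL and 57.9 FPKM with M-CSF in fl/fl cells. *Rpa1* and *Rpa2*, which coat single-stranded DNA, had RANKL ratios of -0.18 and -0.15. *Rpa1* was at 60.7 FPKM in both the cKO and the M-CSF library, against 50.3 FPKM when fl/fl cells had both cytokines and 53.3 FPKM when they had RANKL. *Rpa2* was at 37.4 FPKM in the cKO library, against 29.2, 31.2 and 34.8 FPKM. The M-CSF library was thus above the RANKL library in *Lig1*, *Rpa1* and *Rpa2*. The flap endonuclease *Fen1* was at 68.2 FPKM in the cKO library, against 47.6, 62.9 and 51.8 FPKM. *Fen1* followed the ring genes more than *Lig1*, but 78.8% of its annotated exon length lies under an antisense gene, and the strand of the libraries is not given in the sources used here. *Gins2* has a comparable overlap of 67.3% with *Gse1*, which stood at 7.45 to 10.1 FPKM. Of the other genes, 13 had smaller overlaps, up to 17.4% of exon length.

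For the supply of nucleotides, *Dut*, which removes dUTP, was at 32.6 FPKM in the cKO library, against 19.6 FPKM with RANKL and IL-3, 29.0 FPKM with RANKL and 19.0 FPKM with M-CSF in fl/fl cells. The ribonucleotide reductase genes *Rrm1* and *Rrm2*, whose enzyme makes deoxyribonucleotides, had cKO ratios of 0.54 and 0.60. *Rrm1* was at 91.0 FPKM in the cKO library, against 62.2, 83.0 and 73.5 FPKM. *Rrm2* was at 97.4 FPKM in the cKO library, against 64.0, 80.6 and 65.2 FPKM. Thymidine kinase *Tk1* was at 88.6 FPKM in the cKO library, against 55.6, 78.5 and 89.3 FPKM. *Tk1* thus had a cKO ratio of 0.66 and a RANKL ratio of -0.18. Thymidylate synthase *Tyms* was nearly level, at 17.1 FPKM in the cKO library, against 14.5, 14.9 and 14.4 FPKM.

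Of the S phase regulators, *Uhrf1* stood out. It brings the maintenance methyltransferase to newly copied DNA, and was at 93.4 FPKM in the cKO library, against 55.4 FPKM with RANKL and IL-3, 87.1 FPKM with RANKL and 54.3 FPKM with M-CSF in fl/fl cells. The cyclin E genes, which activate CDK2 at the start of S phase, differed from each other. *Ccne1* was at 23.5 FPKM in the cKO library, against 20.6, 19.5 and 19.3 FPKM, whereas *Ccne2* was at 19.5 FPKM, against 13.9, 17.0 and 14.6 FPKM. *E2f1*, a transcription factor of many of these genes, was at 30.01 FPKM in the cKO library, against 22.5, 26.2 and 24.8 FPKM. Genes with an E2F motif (9) had a median cKO ratio of 0.56 and those with none (26) 0.51, over ranges of 0.12 to 0.87 and 0.18 to 0.71 that overlap. When IL-3 was added the medians were -0.47 with a motif and -0.36 with none. For RANKL against M-CSF they were 0.36 and 0.29, and the ranges overlapped in these comparisons as well.

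**Figure D3:**
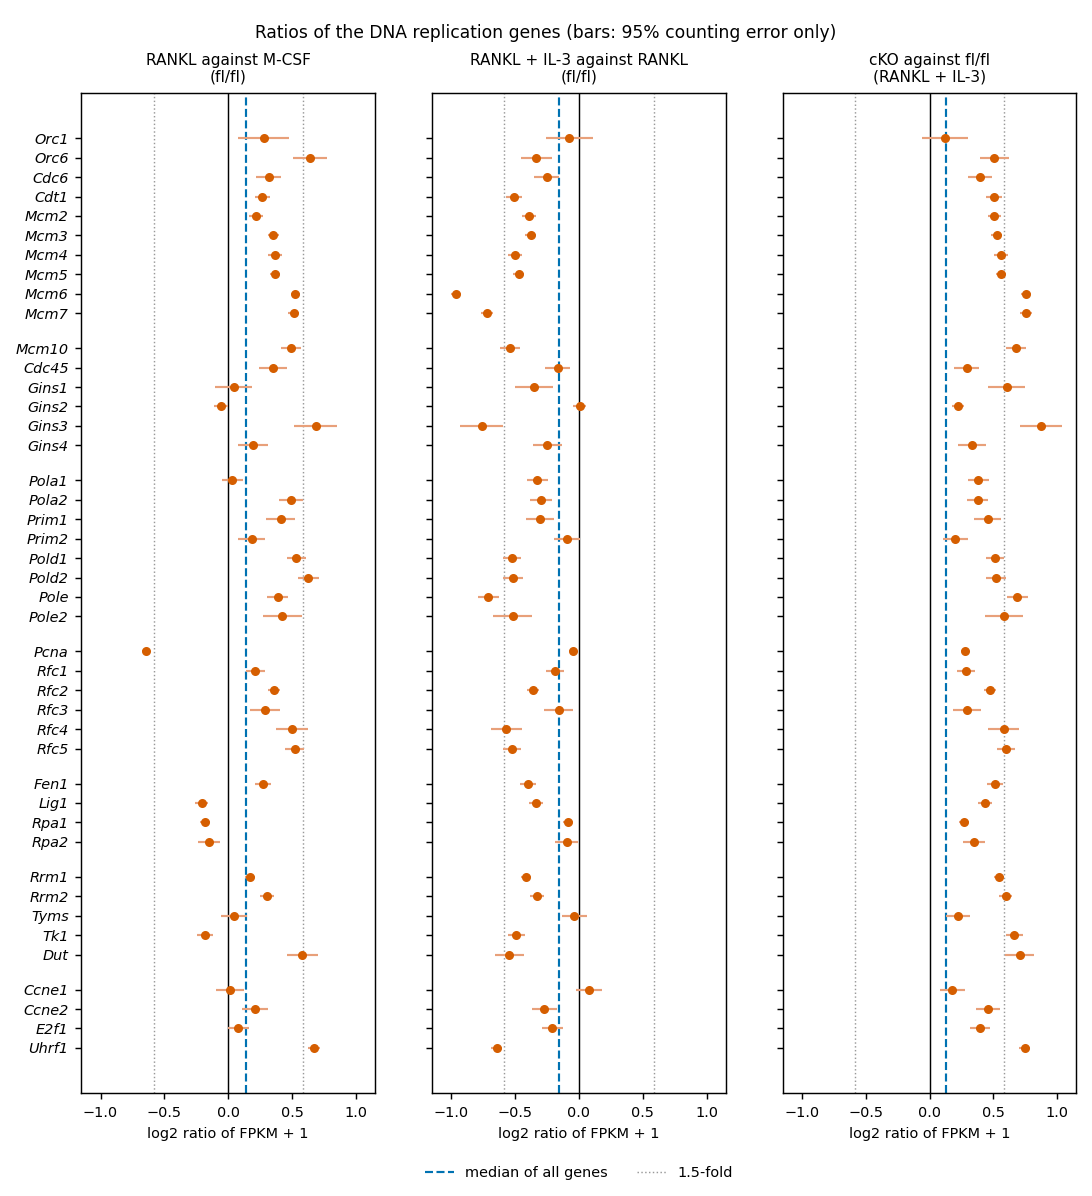
Log2 ratio of FPKM + 1 (x axis) of each replication gene (rows, by role) in the 3 comparisons, with bars for the 95% counting error only, the median of all genes (dashed) and the 1.5-fold limits (dotted). All 43 points lie right of 0 in the cKO comparison, and 41 lie left of 0 when IL-3 was added.

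Some genes combined transcripts with unlike courses. For *Mcm5*, the RefSeq transcript NM_001302540 was at 26.1 FPKM in the cKO library, against 11.2 FPKM with RANKL and IL-3, 24.7 FPKM with RANKL and 10.4 FPKM with M-CSF in fl/fl cells. The other *Mcm5* transcript, NM_008566, was at 77.9 FPKM in the cKO library, against 58.9, 72.9 and 65.2 FPKM, so the first made up 25.1% of *Mcm5* in the cKO library, against 16.0%, 25.3% and 13.7%. For *Uhrf1*, NM_010931 was at 68.98 FPKM in the cKO library, against 32.8, 62.0 and 37.0 FPKM, whereas NM_001111078 was at 12.4 FPKM, against 14.6, 11.3 and 10.5 FPKM. Such splits are estimates, since reads shared between transcripts are divided by the software. Of the 43 genes, 28 had 1 transcript in the table and 15 several.

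The other genes of the pathway gave a similar picture. Of 51 further replication genes, 44 had a RANKL ratio above 0, 46 an IL-3 ratio below 0 and 45 a cKO ratio above 0. At 1.5-fold, 9 were higher and 1 lower with RANKL, 0 higher and 13 lower with IL-3, and 12 higher and 0 lower in the cKO. Of all genes, 15.6% were higher with RANKL, 12.7% lower when IL-3 was added and 8.43% higher in the cKO, so that the RANKL count was near the background. At 2-fold, 2 were higher with RANKL, against 5.44% of all genes, and 0 differed in any other comparison. The first was *Shmt1*, an enzyme of thymidylate synthesis, at 24.9 FPKM with RANKL, against 9.40 FPKM with M-CSF. The second was *Ctps*, which makes CTP, at 35.9 FPKM with RANKL, against 17.4 FPKM with M-CSF. Their medians of 0.29, -0.38 and 0.45 in the 3 comparisons were close to those of the 43. Of 30 mitosis genes, 18 had a RANKL ratio above 0, 30 an IL-3 ratio below 0 and 30 a cKO ratio above 0, with medians of 0.08, -0.44 and 0.60. At 1.5-fold, 0 of these differed with RANKL, where 15.6% of all genes were higher and 13.9% lower. With IL-3, 10 were lower, against 12.7% of all genes, and in the cKO 16 were higher, against 8.43%. Against the 61.0%, 64.0% and 64.4% of all genes on these sides of 0, the mitosis genes were near the background with RANKL. *Bub1*, a spindle checkpoint kinase, had the highest cKO ratio among them, at 30.6 FPKM in the cKO library, against 16.5 FPKM in fl/fl with RANKL and IL-3.

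Regulators of the G1 to S transition were more varied than the replication genes. Of 28 listed, 26 were measured, with medians of -0.07, -0.05 and 0.19. *Cdkn1a*, which encodes the CDK inhibitor p21, was at 144 FPKM in the cKO library, against 240 FPKM with RANKL and IL-3, 75.8 FPKM with RANKL and 165 FPKM with M-CSF in fl/fl cells. *Cdk6*, a kinase of cyclin D, was at 17.5 FPKM in the cKO library, against 8.49, 22.7 and 10.01 FPKM. *Myc*, a transcription factor of growth genes, was at 114 FPKM in the cKO library, against 66.1, 124 and 38.4 FPKM. *Ccnd2*, a D cyclin, was at 0.666 FPKM in the cKO library, against 5.11, 0.536 and 3.45 FPKM. *Cdk6* and *Myc* were low in the fl/fl library with RANKL and IL-3 relative to the cKO and RANKL libraries, as were most replication genes, and *Cdkn1a* and *Ccnd2* were high there. Other genes of the list ran differently. *Ccnd1*, another D cyclin, was at 258 FPKM in the cKO library, against 196, 148 and 276 FPKM. It was thus higher in the cKO than in fl/fl with the same cytokines, unlike *Ccnd2*. The other measured CDK inhibitor genes had cKO log2 ratios of -0.29 (*Cdkn2b*) to 0.37 (*Cdkn2a*), against -0.73 for *Cdkn1a*. For RANKL against M-CSF, *Cdkn1a* was not apart from them. Its ratio was -1.11, against -1.54 for *Cdkn2b*, -1.12 for *Cdkn2d* and -0.89 to 0.05 for the rest.

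**Figure D4:**
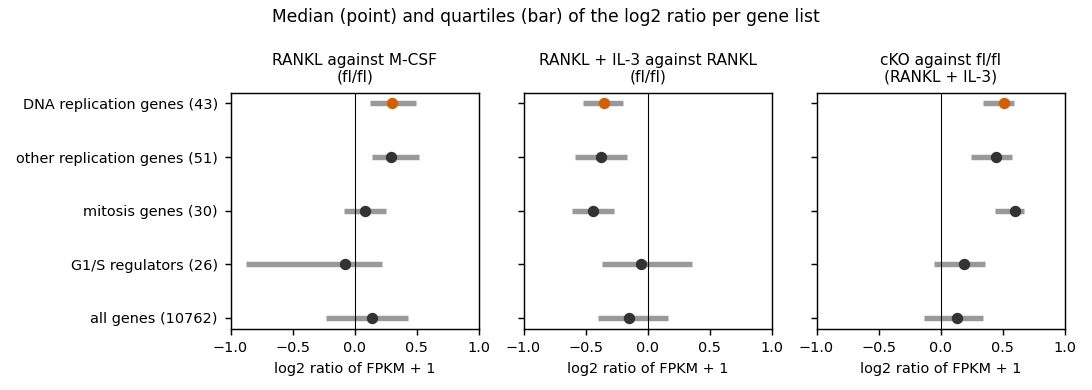
Median log2 ratio of FPKM + 1 (points) and quartiles (bars) for the replication genes, 3 other gene lists and all genes (rows), in the 3 comparisons (panels). The cKO medians of the replication and mitosis lists are 0.51 and 0.60, against 0.13 for all genes, while with RANKL the quartiles of the mitosis list span 0 and its median of 0.08 is below the 0.14 of all genes.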

How the data were processed

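The authors sequenced total RNA of the 4 BMM libraries on a HiSeq2000 system. According to the submitters' processing notes, TopHat2 2.0.13, Cufflinks 2.2.1 and mm10 were used. The deposited values are FPKM per RefSeq transcript, estimated by the authors; no unit stands in the table, so FPKM was inferred from these tools and from the values. Strand and alignment options: not given in the sources used here.

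Transcripts (33170) were summed per gene ID. Genes that reached 1 FPKM in any library were compared (10762), after 47 small RNA genes that reached the minimum were left out. Ratios used a pseudocount of 1 FPKM, which understates the change of low genes. Genes past 2-fold or 1.5-fold on that scale were counted. Depth was estimated from low values of genes with 1 transcript that is 3000 nt or longer, which fall on steps of 1 fragment. Of these, 71.2% to 72.7% were less than 0.2 steps away from one, against 40% for even spacing. The step came from the same values, so part of that excess is built in. Intervals cover counting error only.

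The 43 genes, the other gene lists and the folds were chosen with earlier results of these data known. All 43 were named, with *Stat5a* and *Stat5b*; of other lists, genes at least 2-fold apart in a comparison (at most 6 per comparison, or the 3 largest where none was) were listed, and the text gives part of them. The sex-linked genes, transcripts and overlapping genes were picked after their values were seen. So were *Ccnd1*, *Cdkn2a* and, apart from *Calcr*, the single marker genes named. Gene positions are from GENCODE M21 on GRCm38 and promoters from RefSeq on GRCm38.p6. Tools were matplotlib 3.10.9, pandas 2.3.3, numpy 2.4.6 and scipy 1.17.1 under Python 3.11.15. The ratio and count steps were tested on simulated data. Scaling, pseudocount, minimum and choice of transcript were varied.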

Additional observations from a re-analysis of the deposited data

How the results depend on the processing

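No paired analysis was possible because each condition had 1 library, and for the same reason no library could be left out. With 1 library per condition, differences between conditions include variation between cultures and mice that was not measured. Scaling by the median ratio of all genes moved most values: the median of the 43 genes became 0.15 in the RANKL comparison, -0.18 in the IL-3 comparison and 0.37 in the cKO comparison. With that scaling the genes past 1.5-fold became 0 on the higher side of the RANKL comparison, 2 on the lower side of the IL-3 comparison and 4 on the higher side of the cKO comparison, 10 genes were above 0 in the IL-3 comparison, and 1 was highest in the RANKL library. Among all genes, the same scaling gave 435 higher and 937 lower at 2-fold for RANKL (585 and 740 without it) and 818 higher and 270 lower for IL-3 (658 and 373). At 1.5-fold it gave 1121 higher and 1846 lower for RANKL (1680 and 1491), 1683 and 758 for IL-3 (1303 and 1371) and 556 and 1268 for the cKO (907 and 957). With upper-quartile scaling, 2 genes were past 1.5-fold higher with RANKL and 4 were above 0 with IL-3. With a pseudocount of 0.1 FPKM, 13 genes were past 1.5-fold higher in the cKO, against 11.9% of all genes. That pseudocount gave 6 lower with IL-3, against 16.8%, and 5 higher with RANKL, against 19.4%. With the most abundant transcript of each gene in place of the sum, 1 gene (*Uhrf1*) was at least 2-fold higher in the cKO. No median of the 43 genes changed sign under the alternatives run, and the cKO library was highest in 36 genes under both scalings. The cause of these moves was not tested beyond the shift of all genes that the scaling removes. *Orc1*, with 359 estimated fragments in its lowest library, had the widest counting interval.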
